A study of Mus musculus with 16 samples.

Results

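Skp1a, the cullins and the F-box genes were examined in sorted mouse blood progenitors labelled WT and Tet2KO. The members are the genes whose symbol is Fbxw, Fbxl or Fbxo with a number or Cul with a number, and Skp1a, Skp2, Rbx1, Btrc and Cand1, which gave 89 of the 23420 gene rows of each deposited table. Multipotent progenitors (MPP, sorted as Lin-cKit+Sca1+CD48+CD150-) and granulocyte-monocyte progenitors (GMP, Lin-cKit+Sca1-CD150-CD16/32+) came from Kit-enriched bone marrow of individual mice 40 weeks old. Groups labelled WT carry the genotype Tet2fl/fl and those labelled Tet2KO the genotype Tet2-/-. Each of the 4 groups has 4 libraries, 16 in all, and 3 mice per genotype gave both populations. Strain, treatment and any Cre driver were not given in the sources used here. Libraries were made from 2 ng of total RNA and read as 75 bp single ends.

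Cullin-RING ubiquitin ligases attach ubiquitin to chosen proteins, most often marking them for destruction by the proteasome. In the SCF type, the scaffold CUL1 holds the RING protein RBX1 at its far end and the adaptor SKP1 at its near end, and SKP1 in turn holds an F-box protein that picks the substrate. Cullins are switched on by attachment of NEDD8 and off by its removal by the COP9 signalosome, and CAND1 exchanges one F-box protein for another. In blood progenitors these ligases are known for controlling MYC, cyclins, cyclin-dependent kinase inhibitors and beta-catenin. TET2 oxidizes methylated cytosine in DNA, a step towards its demethylation.

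The tables hold 1 comparison of Tet2KO with WT per population and no value per library, so that a gene's spread over mice is given here only through the authors' standard error (SE). A level is the mean normalized count of a gene over all libraries of a population, and a change is the log2 ratio of Tet2KO to WT, as fitted by the authors. Genes with a mean of at least 10 that the authors had not marked as outliers were tested, and those with an adjusted p under 0.05 are named called genes. The tables called 73 of 11859 tested genes in MPP (0.616%) and 456 of 11503 in GMP (3.96%). Tet2 itself was called higher in Tet2KO in both of the authors' deposited tables, with a log2 fold change of 0.44 (SE 0.0992 with adjusted p = 0.00551) in MPP and 0.35 (SE 0.0748 with adjusted p = 0.000409) in GMP. A whole-gene value cannot show the loss of single exons, so it is no check of the labels, and all directions given here follow the labels. Of the sort markers, Ly6a and Fcgr3 followed the gates. Ly6a, which encodes Sca1, made up 28.2 ppm of the summed means in MPP and 1.77 ppm in GMP, and the CD16 gene Fcgr3 made up 2.04 and 47.6 ppm. Kit, positive in both gates, made up 799.3 and 579.7 ppm. CD48 is named in the MPP gate only, but Cd48 had no larger share there, with 108.7 ppm in MPP and 115.1 in GMP. The CD150 gene Slamf1, negative in both gates, made up 2.83 and 0.34 ppm.

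Of the 89 members, 64 were tested in MPP and 65 in GMP, 63 of them in both. In each population 1 tested member was called, and it was Skp1a, lower in Tet2KO. That is 1.56% of the tested members in MPP, where 0.616% of all tested genes were called and 0.27% were called lower. In GMP it is 1.54%, below the 3.96% called among all tested genes and beside 2.22% called lower and 1.75% called higher. No other member passed the threshold in either table, the cullins, the F-box genes, Rbx1 and Cand1 included. The lowest adjusted p after that of Skp1a was 0.275 in MPP (Fbxo25) and 0.133 in GMP (Fbxo3) in the authors' deposited tables. At an unadjusted p of 0.05, 5 of 64 members passed in MPP (7.81%, against 9.73% of all tested genes) and 8 of 65 in GMP (12.3%, against 16.4%).

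Skp1a encodes the SKP1 adaptor, the piece that every SCF ligase shares. The gene lies on chromosome 11 from 52231995 to 52246858 on the plus strand (mm10, GENCODE M21 annotation) and is protein coding. In MPP it had a mean of 1973 and fell by 0.48 on the log2 scale in the authors' deposited table (SE 0.0997, 95% interval -0.68 to -0.28, adjusted p = 0.00134), which is a fold of 0.717. In GMP the mean was 2167 and Skp1a fell by 0.25 in the authors' deposited table (SE 0.0645, 95% interval -0.38 to -0.13, adjusted p = 0.00591), a fold of 0.839. The call in GMP was lost, with an adjusted p of 0.255, when the statistics were divided by their own robust spread over all genes (1.35 in GMP), while in MPP, where that spread was 1.15, the adjusted p was 0.0278 and the call was kept. The change in GMP minus that in MPP was 0.23 (SE 0.119, 95% interval -0.01 to 0.46), with a two-sided normal p of 0.0563. The adjusted p was 0.9999 over all genes with a p in both populations, weakly expressed ones included. That error takes the tables as independent, although 3 mice per genotype gave both populations. With errors correlated as the statistics are across genes (0.346) the SE was 0.0982, the unadjusted p 0.0211 and the adjusted p 0.498, so in neither form did the difference pass the adjustment. That correlation also holds any genotype effects common to both populations, so it is not an estimate for the errors alone.

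**Figure D1:**
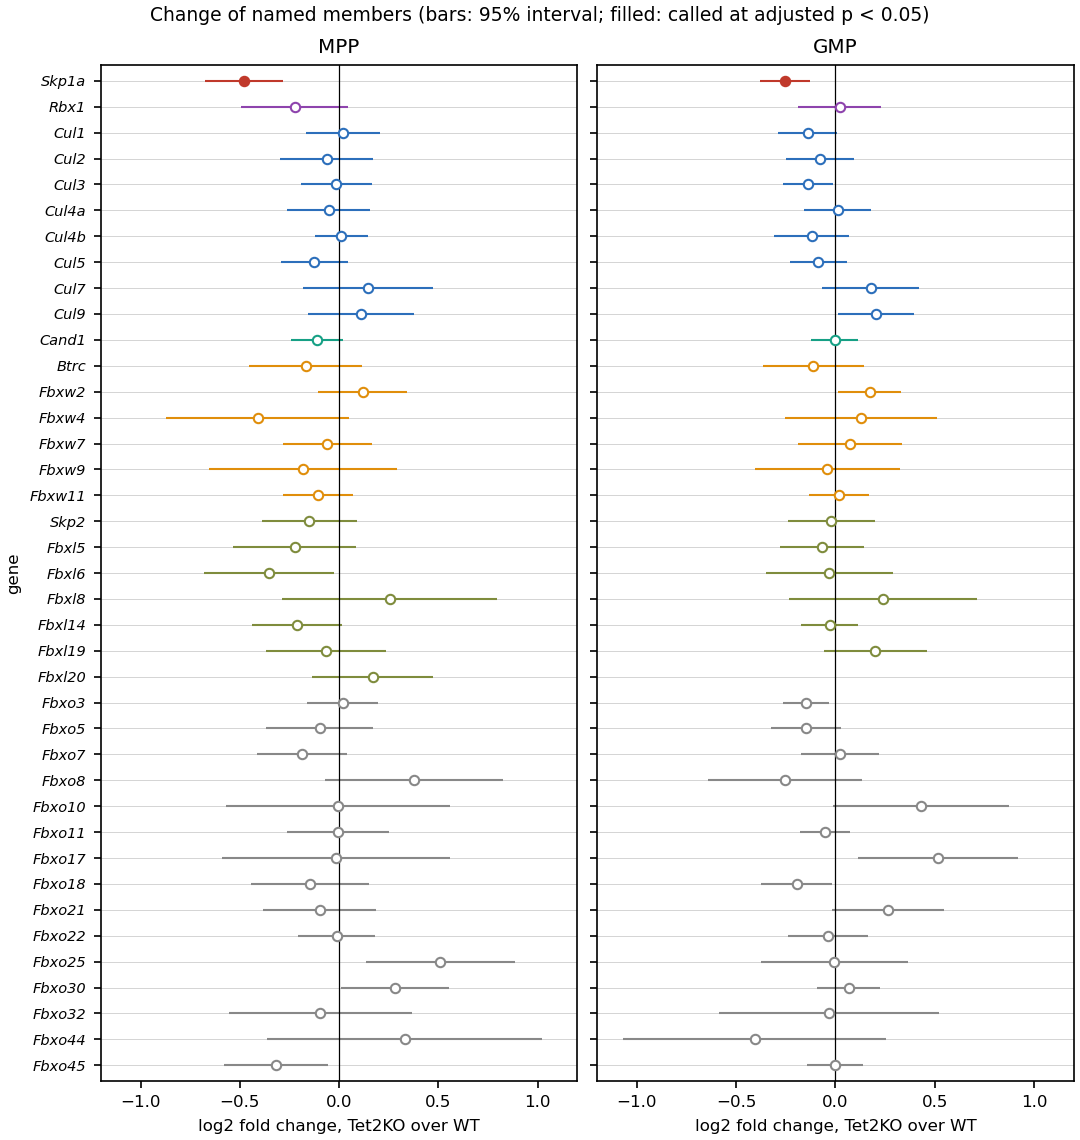
Log2 fold change of Tet2KO over WT (x axis) for the tested named members (y axis) in MPP and GMP, from the authors' deposited tables, with bars for the 95% interval, filled points for called genes and colours for the role of the gene. The Skp1a interval lies below 0 in both panels at -0.48 and -0.25 and it is the only filled point. Fbxl20, an outlier in GMP, has no GMP point.

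In the plot of changes by gene, a few other intervals also leave 0 on their own, such as that of Fbxo25 in MPP, without passing the adjustment over all genes. Because these are bulk samples, fewer cells of a type and less RNA per cell cannot be told apart in any of the values. Markers of other cells were summed in each population. The 5 B cell markers summed to 12.9 ppm of the summed means in MPP and 14.1 in GMP, the 5 T cell markers to 5.97 and 2.94, and the 5 late neutrophil markers to 4.51 and 3.79. The megakaryocyte list summed to 33.5 and 29.6, and the erythroid list of 7 genes to 129.5 and 163.0, with the alpha globin genes Hba-a1 and Hba-a2 at 0 in both. Of the erythroid markers 4 of 7 were marked as outliers in each table and had no p. In GMP the platelet gene Pf4 rose by 1.35 (SE 0.345, adjusted p = 0.0062) at a mean of only 37.2 in the authors' deposited table. Ctsg, a granule protease gene of the GMP markers, fell by 0.31 there (adjusted p = 0.00434). Pf4 was at -0.92 in MPP, and its difference, GMP minus MPP, of 2.27 was called. Itga2b of the same list was at 0.11 in GMP and 0.44 in MPP, without a call. No other GMP marker was called in GMP. Mpo was at 0.08, Prtn3 at 0.04, Kit at 0.01, Cd34 at -0.01, Fcgr2b at -0.26 and Fcgr3 at -0.32 there. Elane, at -0.08, was an outlier. None of the markers tested in MPP was called there, but several could not be. Of the 8 GMP markers 4 were marked as outliers in MPP and had no p, Mpo at 0.54 (SE 0.325), Elane at 0.35 (SE 0.379), Prtn3 at 0.26 (SE 0.314) and Ctsg at 0.05 (SE 0.328) in the authors' deposited table. The MPP marker Flt3 was also an outlier there, at -0.39 (SE 0.158). The part of all these markers in the Skp1a result was not tested.

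The window around the start of Skp1a is shown because this is the only called member. It covers chr11:52231745-52232044 on the plus strand, from 250 bases before to 50 bases after the start, from RefSeq on GRCm38.p6. Capitals mark matches to 5 motifs searched on both strands, of which it holds TGACGTCA (the cAMP response element) and TATAAA (the TATA box).

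Skp1a: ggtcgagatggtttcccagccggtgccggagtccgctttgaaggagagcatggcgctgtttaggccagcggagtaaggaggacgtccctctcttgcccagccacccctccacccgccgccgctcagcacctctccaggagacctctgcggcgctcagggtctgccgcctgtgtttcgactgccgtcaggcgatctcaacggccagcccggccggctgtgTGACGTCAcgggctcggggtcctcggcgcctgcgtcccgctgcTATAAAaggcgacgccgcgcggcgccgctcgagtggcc

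TGACGTCA begins 31 bases before the start and TATAAA 12 bases after it. Among all 32851 windows of this length, 1.79% hold TGACGTCA and 13.6% hold TATAAA. RefSeq windows were found for 69 of the 89 members, 93 windows in all, and 2.15% of these hold TGACGTCA and 3.23% hold TATAAA. The only members with TGACGTCA were Skp1a and Fbxw9, and those with TATAAA were Cul5, Fbxw7 and Skp1a. GGGCGG, the GC box, was in 57.0% of the member windows against 35.7% of all, CCAAT in 29.0% against 37.4%, and CACGTG in 7.53% against 7.15%. None of these last 3 is in the Skp1a window. The member windows hold a median of 18 CpG against 7 in all windows, and the Skp1a window holds 34, more than 92.3% of all windows. A match describes the letters and not a bound site, and no methylation or binding was measured in these libraries.

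Genes around Skp1a gave no call. Of 10 annotated genes within 250 kb that have a row, 6 were tested in both populations, among them Ube2b, a ubiquitin-conjugating enzyme, Ppp2ca, the catalytic subunit of protein phosphatase 2A, the transcription factor gene Tcf7 and the mitochondrial channel gene Vdac1. The changes of these 6 lay between -0.19 and 0.17 in MPP and between -0.12 and 0.12 in GMP, with adjusted p of at least 0.487 and 0.439 in the authors' deposited tables. No annotated exon of another gene overlaps those of Skp1a. A stretch of 373 bp of Skp1a is 96.2% identical to Gm12988, a processed pseudogene on chromosome 4 that is not analysed here, and how the authors' counting treated reads shared with it was not given.

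The scaffold, RING and exchange subunits that work with SKP1 were tested in both populations and were not called. Cul1, the SCF scaffold, had a mean of 2106 and a change of 0.02 in MPP (SE 0.0950 with adjusted p = 0.973), and a mean of 2591 and a change of -0.14 in GMP (SE 0.0759 with adjusted p = 0.351) in the authors' deposited tables. Rbx1, the RING subunit that recruits the ubiquitin-carrying enzyme, had a mean of 308 in MPP and 312 in GMP. Its change was -0.22 (SE 0.138 with adjusted p = 0.627) in MPP and 0.02 (SE 0.107 with adjusted p = 0.957) in GMP in the authors' deposited tables. Rbx1 has a processed pseudogene, Rbx1-ps on chromosome 17, that is 99.1% identical over 327 bp, so its counts are uncertain. Cand1, the exchange factor, had a change of -0.11 (SE 0.0661 with adjusted p = 0.607) in MPP and -0.004 (SE 0.0595 with adjusted p = 0.985) in GMP in the authors' deposited tables. With 1.5-fold as a bound, the 95% intervals of Cul1, Rbx1 and Cand1 lay inside it in both populations, with the counts of Rbx1 uncertain as said.

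All 8 cullins were tested in both populations and none was called. In MPP, 4 of 8 lay below 0 with a median change of -0.002 and a range of -0.13 to 0.14. In GMP, 5 of 8 lay below 0 with a median of -0.08 and a range of -0.14 to 0.20. The medians over all tested genes were -0.004 and 0.0003, with 50.9% and 49.9% below 0. The 95% interval of every cullin stayed within a 1.5-fold change in both populations, and that of 4 of 8 in MPP and 3 of 8 in GMP within 1.2-fold. Cul3, which works with BTB proteins in place of SKP1, had a change of -0.01 (SE 0.0918) in MPP and -0.14 (SE 0.0645 with adjusted p = 0.250) in GMP in the authors' deposited tables. Cul9, a large cullin known for binding p53, had 0.11 (SE 0.136) in MPP and 0.20 (SE 0.0972 with adjusted p = 0.256) in GMP in the same tables. Those of GMP were the only 2 cullin values with an unadjusted p under 0.05.

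The other cullins use other adaptors, except Cul7, which takes up SKP1 with FBXW8. Cul7 had a change of 0.14 (SE 0.167) in MPP and 0.18 (SE 0.125) in GMP in the authors' deposited tables. Cul2 and Cul5, which work with the elongins, had -0.06 and -0.13 in MPP and -0.08 and -0.09 in GMP, as log2 fold changes from those deposited tables. Cul4a and Cul4b, which work with DDB1, had -0.05 and 0.01 in MPP and 0.01 and -0.12 in GMP. None of these values had an adjusted p under 0.517.

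Among the WD-repeat F-box genes (22 with Btrc), 10 were tested in each population, none was called, and the median change was 0.01 in MPP and 0.05 in GMP. Btrc and Fbxw11 encode the beta-TrCP proteins, which recognise phosphorylated beta-catenin and I-kappa-B. Btrc had -0.17 (SE 0.144) in MPP and -0.11 (SE 0.130) in GMP, and Fbxw11 had -0.11 (SE 0.0895) and 0.02 (SE 0.0768) in the authors' deposited tables. Fbxw7, which recognises phosphorylated MYC, cyclin E and NOTCH and is needed to keep blood stem cells quiescent, had -0.06 (SE 0.114 with adjusted p = 0.925) in MPP and 0.07 (SE 0.135 with adjusted p = 0.858) in GMP in the authors' deposited tables. Fbxw2 had 0.12 (SE 0.114) and 0.17 (SE 0.0811 with adjusted p = 0.249), and Fbxw4 had -0.41 (SE 0.235 with adjusted p = 0.582) and 0.13 (SE 0.195) in MPP and GMP, again from the authors' deposited tables.

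The remaining 12 of the WD-repeat genes were below a mean of 10 in both populations. They are Fbxw13 to Fbxw16, Fbxw18 to Fbxw22, Fbxw24, Fbxw26 and Fbxw28, and all lie within one stretch of chromosome 9 between 109139447 and 109746089 (mm10). Their highest mean in either table was 1.13. Fbxw14 and Fbxw28 are 99.1% identical over 1497 bp, so that reads from these copies may not be told apart.

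Among the leucine-rich-repeat F-box genes (19 with Skp2), 15 were tested in MPP and 14 in GMP, and none was called. Their median change was -0.02 in MPP and 0.12 in GMP. Skp2, which recognises the cell cycle inhibitor p27, had -0.15 (SE 0.122 with adjusted p = 0.751) in MPP and -0.02 (SE 0.112 with adjusted p = 0.959) in GMP in the authors' deposited tables. Fbxl5, the iron-sensing F-box gene that controls IRP2, had -0.22 (SE 0.157) and -0.07 (SE 0.108), and Fbxl6 had -0.35 (SE 0.167 with adjusted p = 0.457) and -0.03 (SE 0.163) in MPP and GMP of the authors' deposited tables. Fbxl14, known for targeting SNAIL, had -0.21 (SE 0.116) and -0.03 (SE 0.0739). Fbxl19 had -0.07 (SE 0.153) and 0.20 (SE 0.132 with adjusted p = 0.482), and Fbxl8 had 0.26 (SE 0.276) and 0.24 (SE 0.242). The highest values of the tested genes of this kind in both populations were those of Fbxl22, at 0.49 (SE 0.273 with adjusted p = 0.571) in MPP and 0.59 (SE 0.290 with adjusted p = 0.274) in GMP of the authors' deposited tables, at means of 49.3 and 27.3. It was the only one of them in GMP with an unadjusted p under 0.05. Fbxl20 was the single member marked as an outlier, in GMP only, with a mean of 1080 and a value of 0.11 (SE 0.135) and no p in the authors' deposited table, and in MPP it was tested at 0.17 (SE 0.156 with adjusted p = 0.792).

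Of the 37 Fbxo genes, whose substrate-binding parts are of other kinds, 28 were tested in MPP and 30 in GMP, and none was called. The median change was -0.01 in MPP and -0.004 in GMP. In MPP the highest value relative to its error was that of Fbxo25, a close relative of Fbxo32, at 0.51 (SE 0.192, unadjusted p = 0.0079, adjusted p = 0.275) in the authors' deposited table, where the GMP value was -0.01. Fbxo30 had 0.28 (SE 0.138 with adjusted p = 0.486) and Fbxo45, known for acting with the ligase MYCBP2, had -0.32 (SE 0.134 with adjusted p = 0.376) in that MPP table. In GMP the lowest relative to their errors were Fbxo3 at -0.15 (SE 0.0587 with adjusted p = 0.133) and Fbxo18, a DNA helicase with an F-box, at -0.20 (SE 0.0902 with adjusted p = 0.234), both from the authors' deposited table. Fbxo17, of the glycoprotein-binding F-box family, had 0.52 (SE 0.206 with adjusted p = 0.144) and Fbxo21 had 0.26 (SE 0.145 with adjusted p = 0.351) in the same table.

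Fbxo genes known in blood cells or in the cell cycle were not called either. Fbxo11, which targets BCL6, had -0.004 (SE 0.130) in MPP and -0.05 (SE 0.0635) in GMP in the authors' deposited tables. Fbxo7, which binds the proteasome regulator PI31 and CDK6, had -0.19 (SE 0.116) and 0.02 (SE 0.1004). Fbxo5, the mitotic inhibitor EMI1 of the anaphase-promoting complex, had -0.10 (SE 0.138) and -0.15 (SE 0.0901 with adjusted p = 0.426) in those deposited tables.

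**Figure D2:**
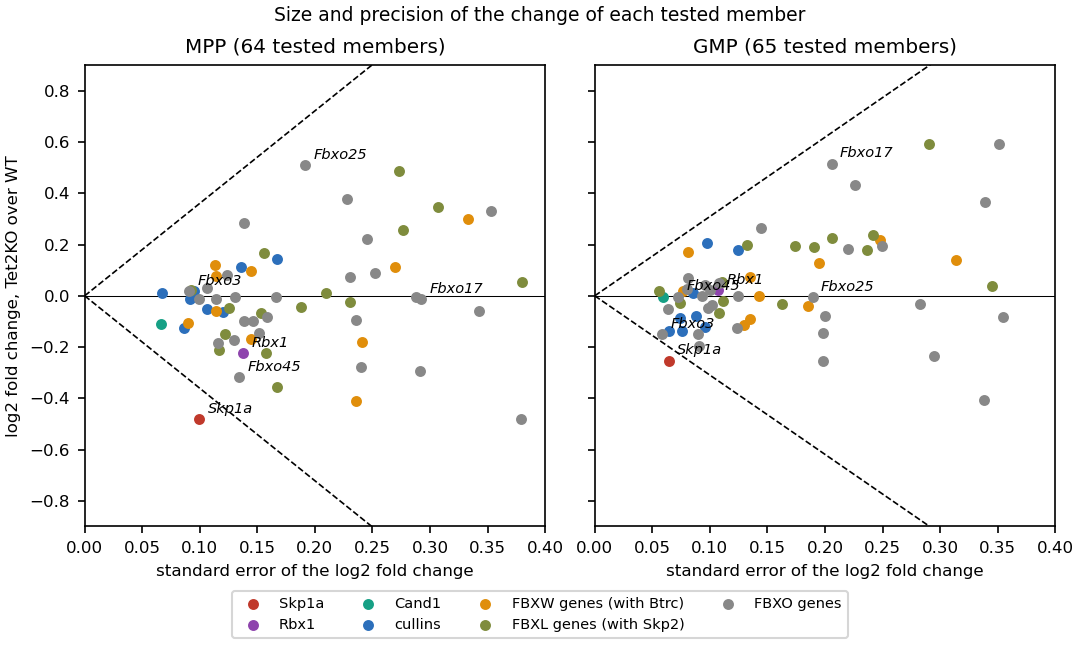
Log2 fold change of Tet2KO over WT (y axis) against its SE (x axis) for each tested member in MPP and GMP, coloured by role, with dashed lines at the smallest statistic called among all genes (3.61 in MPP and 3.09 in GMP). Skp1a is the only point outside the dashed lines in either panel, and members with a large SE spread widely between them.

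How large a change could have been called differed between members, as the plot of change against SE shows. At each member's SE, the size needed for a call had a median of 0.54 in MPP (range 0.24 to 1.37) and of 0.39 in GMP (range 0.17 to 1.10). For members where the needed size was above 0.48, a fitted value like that of Skp1a in MPP would not have been called. The 95% intervals lay within a 1.5-fold change for 45 of 64 tested members in MPP and 47 of 65 in GMP, and within 1.2-fold for 11 and 20. For the other members a change of 1.5-fold is not bounded by these data. Over all tested genes whose names had not been turned into dates, 7612 of 11841 in MPP and 8551 of 11487 in GMP lay within 1.5-fold. Within 1.2-fold lay 1285 and 2864 of them.

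The direction of the members was mixed. In MPP 38 of 64 tested members lay below 0 (59.4%, against 50.9% of all tested genes), and in GMP 31 of 65 (47.7%, against 49.9%). The comparisons share mice, and of the 63 members tested in both, 22 lay below 0 in both, 16 above 0 in both and 25 had opposite signs. The same split over all genes tested in both was not computed, so these counts cannot be read as particular to the members. The difference between the changes in GMP and MPP was tested for 82 members, and none was called, beside 8 of 17660 genes in all (0.0453%). With the tables taken as independent, Fbxo8, with a difference of -0.63 (SE 0.302), and Fbxo45, with 0.32 (SE 0.153), were past an unadjusted threshold of 0.05, and the lowest adjusted p was 0.9999. With correlated errors, as given for Skp1a, 8 members were past it, namely these 2, Skp1a, Fbxo25, Fbxo21, Fbxw4, and the weakly expressed Fbxo16 and Fbxl21. None of the 82 was called in that form either (lowest adjusted p 0.395), while the count of calls over all genes went from 8 to 49 of 17660 (0.277%). How many of all genes were past the unadjusted threshold was not computed in either form. The members past it are therefore named without a reading about the group. Fbxo8 had 0.38 in MPP and -0.25 in GMP in the authors' deposited tables.

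Compared per length, Skp1a was the most abundant member transcript in both populations, while by mean count it ranked 4 in each, behind Cul3, Cand1 and Cul1. It stood at 892 mean normalized counts per kb of annotated exon in MPP and 980 in GMP, where the medians of the tested members were 64.0 and 59.4. Cul3 followed with 687 and 844, Cul1 with 521 and 641 and Cul4b with 436 and 476, in the same order in both populations. Next came Fbxo11 in MPP at 363 and Fbxo22 in GMP at 412, followed in each by Cand1 at 302 and 320. Rbx1 was at 67.7 and 68.5 per kb. The tested F-box genes reached down to 4.70 per kb in MPP and 3.88 in GMP. No spread over mice is available for these levels, so neighbours in this order were not tested against each other, and exon length here is the union over all annotated transcripts.

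**Figure D3:**
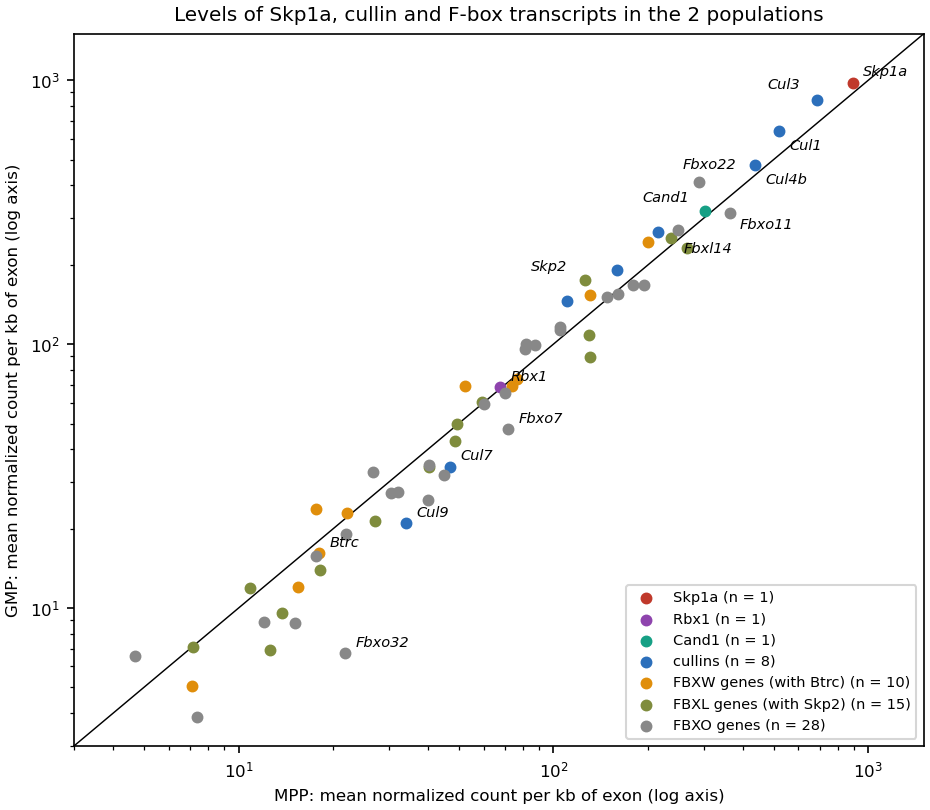
Mean normalized count per kb of exon in MPP (x axis, log scale) and GMP (y axis, log scale) for the members whose mean reached 10 in MPP and in GMP, coloured by role, with the line of equal values. Skp1a, at 892 and 980, is at the upper right with Cul3, Cul1 and Cul4b, while Fbxo32 lies farthest below the line.

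Between the populations, the share of each gene in the summed means was compared without a test, since each table was normalized separately. Of the 63 members tested in both, 48 had a smaller share in GMP (76.2%, against 65.7% of 11050 genes tested in both), and the median ratio of GMP to MPP was 0.828, against 0.898. Fbxo32, the muscle-atrophy ligase atrogin-1, had the lowest ratio at 0.266, with means of 152 in MPP and 47.2 in GMP. Among members with a mean of 50 or more in either population, Fbxo10, Cul9 and Fbxo25 followed at 0.498, 0.528 and 0.550, and the highest ratios were those of Fbxo22 (1.22), Skp2 (1.19), Fbxw9 (1.16) and Cul2 (1.13). Below that mean, Fbxo44 (0.450) and Fbxl22 (0.473) also had low ratios and Fbxo36 (1.197) a high one. For Skp1a the ratio was 0.939.

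Of the 89 members, 23 were below a mean of 10 in both populations. Beside the Fbxw stretch on chromosome 9 they were 4 Fbxl genes (Fbxl7, Fbxl13, Fbxl16 and Fbxl21) and 7 Fbxo genes, among them Fbxo2 and Fbxo15. Fbxo27 and Fbxo47 were below it in MPP only. A mean of exactly 0 was listed for 6 members in MPP and for 2 in GMP, and Fbxo2 and Fbxw14 were the 2 at 0 in both. For 24 members some annotated exon bases also belong to another gene. The shared part was largest for Fbxl12, with 37.1% of its exon bases in Ubl5, and Fbxw8, with 33.4% in Gm9754. Whether counting used the strand was not given in the sources used here, so values of these genes are uncertain.

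The other genes of the pathway were taken as 6 lists with 87 genes, 81 of them tested in each population. In MPP 1 was called (1.23%, against 0.616% of all tested genes) and in GMP 2 (2.47%, against 3.96%), all of them among the SCF substrates. Ctnnb1, which encodes beta-catenin, a beta-TrCP substrate, fell by 0.32 in MPP (SE 0.0741 with adjusted p = 0.00752), and its value in GMP was -0.13 (SE 0.0603 with adjusted p = 0.248) in the authors' deposited tables. Cdkn1a, which encodes the cell cycle inhibitor p21, a SKP2 substrate, rose by 0.69 in GMP (SE 0.171 with adjusted p = 0.00453) in the authors' deposited table. In MPP it was marked there as an outlier, at 0.39. Mycn, a MYC family gene whose protein FBXW7 recognises, rose by 1.10 in GMP (SE 0.346 with adjusted p = 0.0411) in that deposited table at a mean of only 20.1. These are transcript levels, whereas SCF ligases act on the proteins. With the statistics divided by their robust spread, none of the 3 calls remained (adjusted p = 0.0828 for Ctnnb1, 0.227 for Cdkn1a and 0.523 for Mycn).

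**Figure D4:**
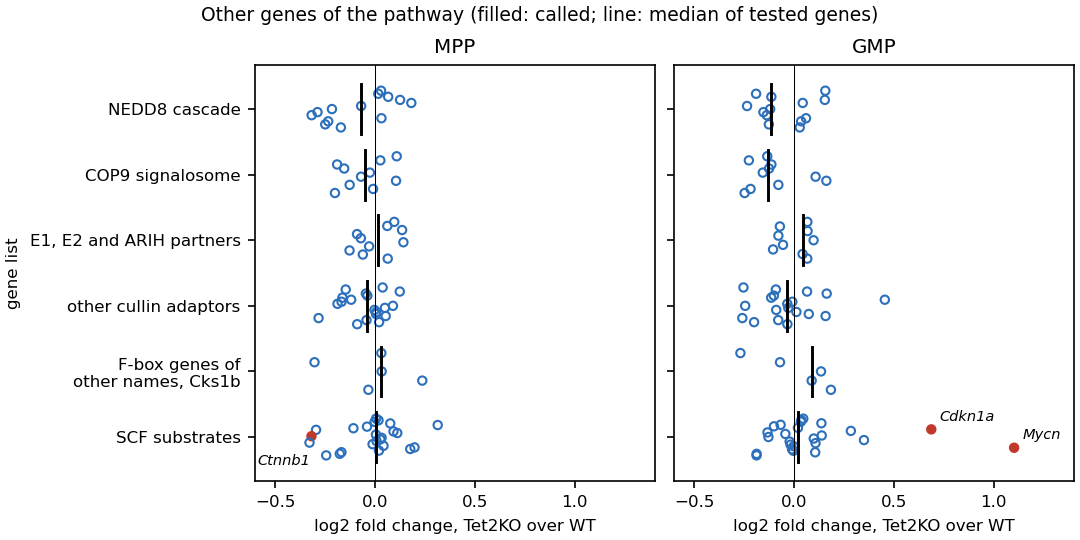
Log2 fold change of Tet2KO over WT (x axis) for the tested genes of the 6 other pathway lists (y axis) in MPP and GMP, from the authors' deposited tables, with filled points for called genes and a black bar at each list's median. The called genes are Ctnnb1 at -0.32 in MPP and Cdkn1a at 0.69 and Mycn at 1.10 in GMP, and the medians of all lists lie between -0.13 and 0.09.

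None of the 13 genes of the NEDD8 cascade was called. Their median change was -0.07 in MPP and -0.11 in GMP, with 7 of 13 below 0 in each, as the plot of the pathway lists shows. The lowest adjusted p in GMP was that of Dcun1d1, a co-factor that helps load NEDD8 on cullins, at -0.19 (SE 0.0696 with adjusted p = 0.0953) in the authors' deposited table. Uba3, the catalytic part of the NEDD8-activating enzyme, had -0.23 (SE 0.10005 with adjusted p = 0.390) in MPP in the authors' deposited table. Of the 10 COP9 signalosome genes none was called, 7 lay below 0 in MPP and 8 in GMP, and the medians were -0.05 and -0.13. Cops3 had -0.23 (SE 0.0836 with adjusted p = 0.0995) in GMP and Cops4 -0.19 (SE 0.105 with adjusted p = 0.561) in MPP in the authors' deposited tables.

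The ubiquitin-activating and ubiquitin-conjugating partners had medians of 0.02 in MPP (10 tested) and 0.04 in GMP (9 tested), with no call. The smallest p of this list were those of the conjugating enzyme gene Ube2g1 in MPP, at -0.13 (SE 0.0872 with adjusted p = 0.683), and of Uba1, the main ubiquitin-activating enzyme gene, in GMP, at -0.08 (SE 0.0569 with adjusted p = 0.531), in the authors' deposited tables. Adaptors of the other cullins had medians of -0.04 and -0.03 over 19 tested genes, with no call. Among them Tceb1, which encodes elongin C and has a fold like that of SKP1, had -0.28 (SE 0.136 with adjusted p = 0.470) in MPP and -0.26 (SE 0.127 with adjusted p = 0.278) in GMP, and Kctd13, a CUL3 adaptor, had 0.45 (SE 0.156 with adjusted p = 0.0684) in GMP in the authors' deposited tables. F-box genes that carry other names and the SKP2 co-factor gene Cks1b had medians of 0.03 and 0.09 over 5 tested genes, with no call. Ccnf, which encodes cyclin F, the founding F-box protein, had -0.27 (SE 0.0910 with adjusted p = 0.0642) in GMP, and Kdm2b, an F-box histone demethylase, had 0.24 (SE 0.125 with adjusted p = 0.530) in MPP in the authors' deposited tables. The SCF substrates had medians of 0.01 and 0.02 over 24 and 25 tested genes. The cyclin D1 gene Ccnd1 was marked as an outlier in both tables and had no p there, with values of -1.11 in MPP and -0.92 in GMP in the authors' deposited tables.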

How the data were processed

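The submitters' processing notes name STAR, mm10 and DESeq2 without versions. Which counter, gene annotation and strand setting were used was not given in the sources used here. Deposited by the authors were 2 tables, 1 per population, with for each gene a mean normalized signal (a normalized count over all libraries), the log2 fold change (Tet2KO over WT), its SE, and a p-value and adjusted p-value. These hold no values per library, so the depth of each library is unknown. The direction of each change rests on the name the authors gave each deposited table. The sum of means was 9436210 for MPP and 11033900 for GMP.

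Recomputation gave the deposited p-value as that of a two-sided normal test of the log2 fold change divided by the SE (relative difference on the log scale up to 0.000382 for MPP and 0.000413 for GMP) and the adjusted value as Benjamini-Hochberg over the tested genes. No SE exceeded 0.388 in MPP or 0.359 in GMP, a ceiling that shrunken fold changes also show, and the changes of genes with low means may then be understated. P-values test the difference between Tet2KO and WT against the SE that the authors fitted to the 4 libraries of each group. These libraries come from individual mice per the labels, and the design of the fit was not given. A total of 27 names per table had been turned into dates and stay out of steps that join names.

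Calls use an adjusted p of 0.05. The difference between populations is the difference of the log2 fold changes over the root of the summed squared SEs, with a two-sided normal p, adjusted over 17660 genes, and treats errors as independent although mice are shared. Positions and exon lengths come from GENCODE M21, in which all 89 members were found, and promoter windows from RefSeq. Copies were sought with BLAST 2.17.0 (at least 95% identity over 300 bp). Calculations used scipy 1.17.1, pandas 2.3.3 and numpy 2.4.6 in Python 3.11.15, with figures from matplotlib 3.10.9, and were tested on simulated data. The simulation had independent normal errors of the deposited SEs and changes larger than that of Skp1a. It checks the code and not the detection of changes of the sizes reported here. The genes named are Skp1a, Rbx1, Cand1, Skp2, Btrc, every cullin, those with the largest changes relative to their errors or the largest ratios of shares among members with a mean of at least 50, those with the highest levels or the largest differences between populations, outliers, and F-box genes known in blood cells. From each other pathway list, called genes or else the one of smallest p were named. Ccnd1, Fbxl22, Fbxo36, the outlier markers and the uncalled markers were added after their values were seen. The members and lists were chosen with earlier results of these data known. Alternatives were other thresholds, other filters on the mean, recentring and an empirical null spread.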

Additional observations from a re-analysis of the deposited data

How the results depend on the processing

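For each call count and for Skp1a, 6 alternatives were run, with adjusted p thresholds of 0.01 and 0.1, a minimum mean of 50, no filter on low means or outliers, recentring on the median, and an empirical null spread (statistics divided by their robust spread over all genes). Skp1a kept its call in MPP under all 6 (adjusted p 0.00131 to 0.0278). In GMP it kept its value of -0.25 and was called under all but the empirical null spread (adjusted p 0.00536 to 0.255), which left 0 members called there. That setting left 17 genes called in MPP and 72 in GMP, among them 0 other pathway genes in either. Other pathway genes called in MPP became 2 with no filter (Ccnd1 and Ctnnb1). In GMP they became 1 at a threshold of 0.01, 7 at 0.1 and 1 with a minimum mean of 50, where Mycn was not tested. Mycn was also not called at 0.01 or with no filter (adjusted p = 0.067), while with no filter Ccnd1 was called in GMP as well. No called value changed sign under any alternative run. With errors correlated between the tables (0.346, from the statistics across genes) the lowest adjusted p of a member's difference was 0.395, with 49 genes called in all and 0 members.

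No paired analysis was possible because the deposited tables hold no values per library. For the same reason leaving out each replicate was not run, so whether 1 library decides a value was not tested. Over all genes, other settings changed the call counts from 73 to 36 (0.01) and 100 (0.1) in MPP, and from 456 to 198 and 768 in GMP. The depth of each library is unknown.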
